A study of Homo sapiens with 18 samples.

Results

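The CLK family of dual-specificity kinases was examined as 4 genes, CLK1, CLK2, CLK3 and CLK4, in RNA sequencing of human leukemia cells. They were chosen by name, as the count-table rows whose Ensembl identifiers map to these symbols, and they are 4 of 18670 genes in the table. All 4 passed the filter on low counts in every comparison. The study lowered or raised S100A9, a calcium-binding protein of myeloid cells, and treated cells with Adavivint, to describe how expression responds to each. Adavivint (also called lorecivivint) is a small molecule known as an inhibitor of CLK2 and of DYRK1A, a kinase of a related family, and of Wnt signalling. The 18 libraries form 6 groups of 3. U937 cells carried a lentiviral shRNA against S100A9 (shS100A9) or an empty vector. THP-1 cells carried an S100A9 overexpression lentivirus or an empty vector, and each of these was profiled with Adavivint at 1 µM for 36 hours and without the drug. Every group was transduced and selected in puromycin (2 µg/mL, from 48 hours after the virus was added, for 24 hours or more), so no group holds unmanipulated cells, although the labels give the genotype of empty vector cells as WT. Whether untreated cells received a vehicle, how many shRNA sequences were used and whether the lines were clonal is left unsaid by the labels. U937 and THP-1 are established human lines with features of monocytes. A single line stands for each S100A9 manipulation, and the drug was given to THP-1 cells alone.

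CLK kinases are nuclear kinases that phosphorylate SR proteins, the serine- and arginine-rich factors that help choose splice sites. Phosphorylation by CLKs moves SR proteins out of nuclear speckles, where they are stored, while the SRPK kinases act on SR proteins mainly in the cytoplasm. CLK genes are themselves spliced into full-length and truncated forms, and transcripts of CLK1 and CLK4 that keep introns are known to be held in the nucleus. The deposited values are counts per gene, so they add all of these forms together.

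GENCODE 29 on GRCh38 lists transcripts of each of these kinds. CLK1 (ENSG00000013441) lies on the minus strand at chr2:200853009-200864744, with 15 transcripts of which 8 are annotated as retaining an intron. CLK2 (ENSG00000176444) lies on the minus strand at chr1:155262868-155278491, with 7 transcripts of which 0 are annotated as intron-retaining and 0 as targets of nonsense-mediated decay (NMD), the pathway that removes transcripts with early stop codons. CLK3 (ENSG00000179335) lies on the plus strand at chr15:74598500-74645414, with 27 transcripts of which 8 retain an intron and 3 are marked for NMD. CLK4 (ENSG00000113240) lies on the minus strand at chr5:178602664-178630615, with 15 transcripts of which 7 retain an intron and 3 are marked for NMD. The fullest coding transcript of every member has 13 exons. The family thus sits on 4 chromosomes, with each member on its own.

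The promoters are shown because 3 members moved together under the drug and 1 did not. Each sequence is the 250 bases before a start of transcription in RefSeq (GRCh38.p14), read 5′ to 3′ on the strand of the gene, at chr2:200864659-200864908, chr1:155273505-155273754, chr15:74615586-74615835 and chr5:178627051-178627300 for CLK1 to CLK4 in turn. The windows of CLK2, CLK3 and CLK4 lie inside the annotated gene spans, downstream of the outermost annotated starts. Capitals mark the half-site of the cAMP response element (TGACG, or CGTCA on the other strand) and the E-box (CACGTG).
CLK1: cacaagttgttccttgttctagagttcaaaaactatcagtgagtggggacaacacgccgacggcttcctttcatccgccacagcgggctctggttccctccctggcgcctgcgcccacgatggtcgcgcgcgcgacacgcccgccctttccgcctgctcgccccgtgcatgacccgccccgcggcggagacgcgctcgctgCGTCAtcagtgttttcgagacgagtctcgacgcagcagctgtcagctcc
CLK2: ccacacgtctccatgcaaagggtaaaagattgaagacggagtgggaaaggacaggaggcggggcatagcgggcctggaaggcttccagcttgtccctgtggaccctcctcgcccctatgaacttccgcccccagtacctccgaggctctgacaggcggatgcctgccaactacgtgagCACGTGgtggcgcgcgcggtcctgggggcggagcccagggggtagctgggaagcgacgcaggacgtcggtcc
CLK3: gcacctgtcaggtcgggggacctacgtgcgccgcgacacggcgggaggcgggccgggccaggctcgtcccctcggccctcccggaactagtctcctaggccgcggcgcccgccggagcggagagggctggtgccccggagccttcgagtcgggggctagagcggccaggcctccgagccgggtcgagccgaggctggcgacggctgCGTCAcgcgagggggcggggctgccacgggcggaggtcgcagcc
CLK4: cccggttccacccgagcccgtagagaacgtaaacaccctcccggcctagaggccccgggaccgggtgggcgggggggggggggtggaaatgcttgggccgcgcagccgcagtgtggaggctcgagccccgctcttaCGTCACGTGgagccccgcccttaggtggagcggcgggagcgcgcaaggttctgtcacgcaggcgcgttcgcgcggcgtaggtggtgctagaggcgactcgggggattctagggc

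The half-site TGACG was present in CLK1, 49 bases before the start, in CLK3, 44 bases before it, and in CLK4, 114 bases before it. It was not among the letters of the CLK2 window. On either strand it occurred in 21.2% of the 34788 RefSeq promoters of the same length. The E-box CACGTG lay 72 bases before the start of CLK2 and 111 bases before that of CLK4, where it overlaps the half-site, and 6.31% of all promoters held it. The GC box GGGCGG was found at 2 places in each of the 4 windows, against 42.6% of promoters with at least 1, and CCAAT was in 0 of the 4, against 32.0%. CLK1 and CLK3 each have a second RefSeq start; the other CLK1 window also holds TGACG, and the other CLK3 window does not. These motifs were searched after the sequences and the drug values had been seen, and a match of letters shows neither binding nor a cause.

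Totals per library ran from 38.4 to 84.4 M counts (M for 1e6). S100A9 followed the labels, at 0.228 ± 0.174 CPM in U937 shS100A9 cells against 6.18 ± 1.43 CPM in U937 empty vector cells, and at 28.4 ± 1.73 CPM in THP-1 overexpressing cells against 6.44 ± 2.72 CPM in THP-1 empty vector cells (SD, n = 3 each). CPM are counts per 1e6 with TMM factors, which scale libraries to one another. Between 8 and 10 of 10 myeloid markers averaged at least 1 CPM in every group. The summed level of the 10 markers lay at 1265 to 1334 CPM in overexpressing cells with drug, 1235 to 1413 CPM in empty vector cells with drug, 1011 to 1048 CPM in untreated overexpressing cells and 958 to 1023 CPM in untreated empty vector cells. LYZ and PTPRC carried most of that sum, and single markers went both ways: 4 of 10 had a higher and 6 a lower mean with the drug in overexpressing cells, and 5 a higher and 5 a lower mean in empty vector cells. LYZ averaged 622 ± 24.7 CPM with the drug against 293 ± 9.53 CPM without it in overexpressing cells (SD, n = 3 each), and 665 ± 59.1 CPM with it against 334 ± 9.46 CPM without it in empty vector cells. CD14, a receptor of monocytes, averaged 21.1 ± 0.270 CPM with the drug against 0.360 ± 0.119 CPM without it in overexpressing cells, and 20.5 ± 1.12 CPM with it against 0.369 ± 0.177 CPM without it in empty vector cells. CD33, a surface receptor of myeloid cells, averaged 21.7 ± 1.86 CPM with the drug against 87.8 ± 4.36 CPM without it in overexpressing cells, and 21.6 ± 1.31 CPM with it against 85.0 ± 2.59 CPM without it in empty vector cells. Means of ITGAM, FCGR1A, CD68 and CSF1R were also lower with the drug with either vector. Epithelial and erythroid markers summed to no more than 0.651 CPM in any library. In U937 cells, the libraries empty vector 2 and shS100A9 3 lay far from the other libraries of their groups: the chi-square over its degrees of freedom was 135 to 225 for pairs that include them and 8.05 and 13.1 for the remaining pairs.

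CLK1, CLK3 and CLK4 were 2.55- to 2.98-fold higher in Adavivint-treated THP-1 cells, with either vector, and CLK2 did not pass the test with either. CLK1 had 161, 159 and 173 CPM in empty vector cells with Adavivint, against 47.8, 65.5 and 72.2 CPM in untreated empty vector cells. In overexpressing cells CLK1 had 170.3, 178 and 173 CPM with Adavivint, against 65.3, 72.8 and 73.0 CPM without it. All 6 treated libraries lay above all 6 untreated ones. CLK1, which can drive the release of SR proteins from speckles, was thus 2.75-fold higher with empty vector (log2 fold change 1.46, SE 0.10, 95% interval 1.24 to 1.69, adjusted p = 8.73e-09, edgeR) and 2.55-fold higher with overexpression (log2 fold change 1.35, SE 0.10, adjusted p = 1.9e-08, edgeR).

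CLK3, which carries the most counts of the family, had 284, 295 and 301 CPM in empty vector cells with Adavivint, against 93.8, 112 and 124 CPM in untreated empty vector cells. With overexpression it had 290.1, 292 and 293 CPM with the drug, against 117, 106 and 99.1 CPM without it. The treated libraries spanned a narrow range and none came near an untreated one. The rise was 2.77-fold with empty vector (log2 fold change 1.47, SE 0.08, adjusted p = 2.59e-10, edgeR) and 2.80-fold with overexpression (log2 fold change 1.49, SE 0.08, adjusted p = 2.2e-10, edgeR).

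CLK4, a close paralog of CLK1, had the fewest counts of the family. It had 58.5, 59.8 and 64.9 CPM in empty vector cells with Adavivint, against 20.2, 21.1 and 22.4 CPM in untreated empty vector cells. With overexpression it had 61.8, 61.3 and 61.6 CPM with the drug, against 24.8, 24.4 and 24.1 CPM without it. The groups were again fully apart. CLK4 was 2.98-fold higher with empty vector (log2 fold change 1.57, SE 0.05, adjusted p = 4.29e-12, edgeR) and 2.60-fold higher with overexpression (log2 fold change 1.38, SE 0.05, adjusted p = 1.32e-11, edgeR).

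CLK2, the member that Adavivint is described as inhibiting, had 73.1, 77.8 and 87.8 CPM in empty vector cells with the drug, against 67.5, 75.3 and 81.4 CPM in untreated empty vector cells. In overexpressing cells it had 75.7, 74.3 and 78.1 CPM with the drug, against 84.8, 78.9 and 74.7 CPM without it. The groups overlapped in both backgrounds. With empty vector the difference was 0.14 on the log2 scale (SE 0.07, 95% interval -0.01 to 0.30, adjusted p = 0.0797, edgeR), and with overexpression it was -0.02 (SE 0.07, 95% interval -0.17 to 0.14, adjusted p = 0.819, edgeR). The intervals leave room for a small change, and the first value passed the threshold under some other settings: it was 0.19 by DESeq2 (adjusted p = 0.0209), 0.19 with the size factors of DESeq2, 0.22 with upper quartile scaling, 0.17 with a filter at 1 CPM, 0.19 without empty vector replicate 3 and 0.20 without treated empty vector replicate 1. With overexpression it passed under 0 of the 14 alternatives, and its sign turned in 5 of them.

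**Figure D1:**
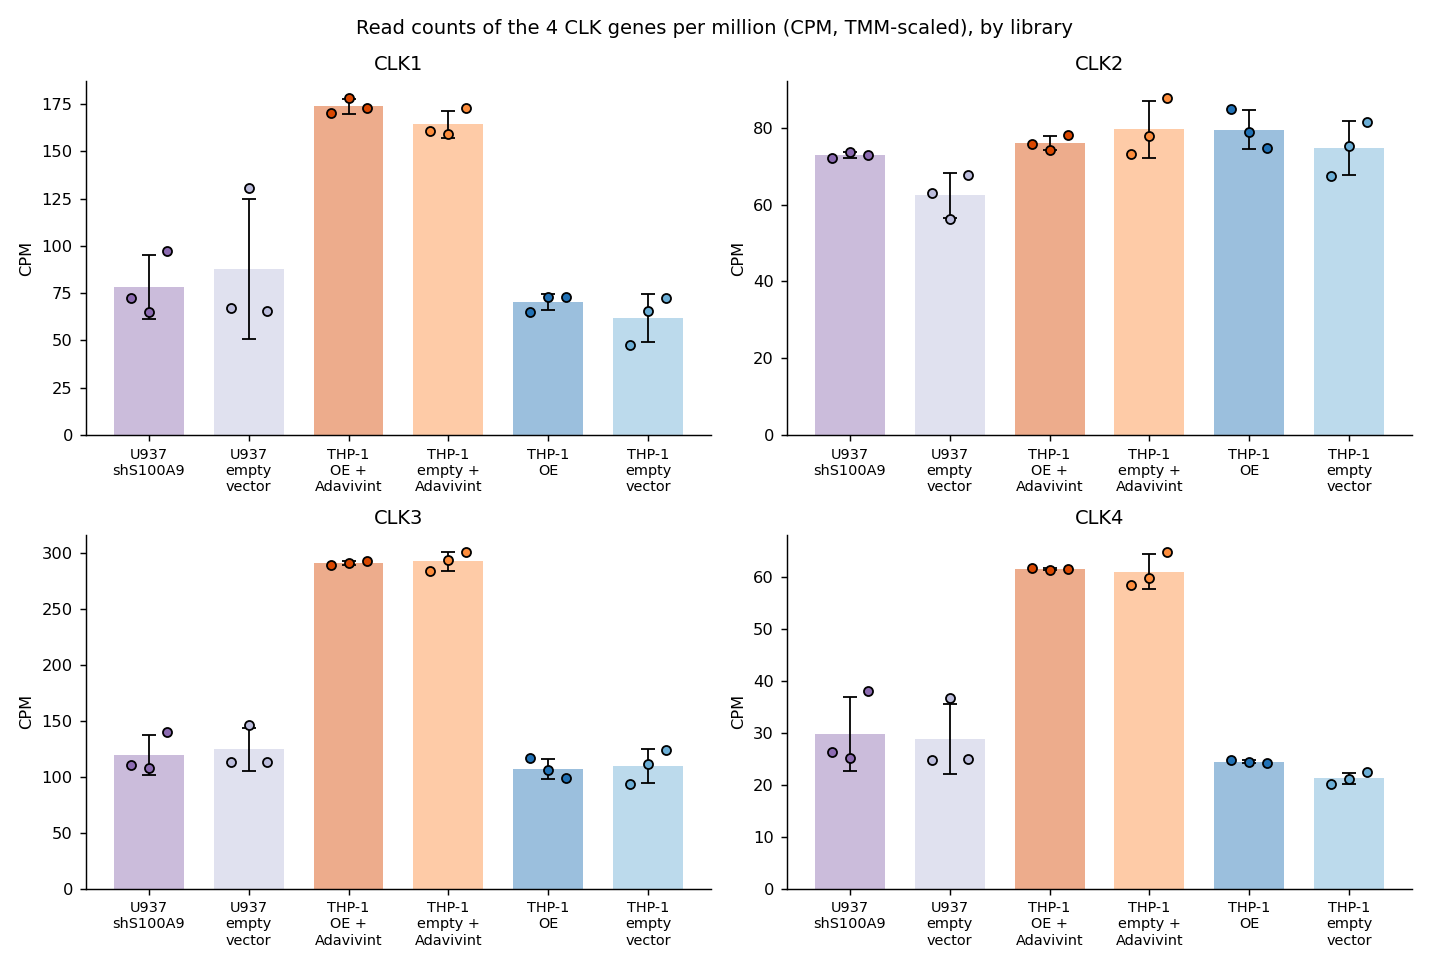
Level of each CLK gene in CPM (y axes, linear from 0) in the 6 groups; points are libraries, and bars are group means with SD (n = 3). The treated THP-1 libraries of CLK1, CLK3 and CLK4 lie above every other library of the gene (for CLK4 at 58.5 to 64.9 CPM), while those of CLK2, at 73.1 to 87.8 CPM, overlap the untreated THP-1 libraries.

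Most of the transcriptome differed with the drug, so the count of members has to be read beside it. Of 15403 genes tested, 85.3% changed with empty vector and 84.7% with overexpression, with 44.2% and 43.4% higher and 41.1% and 41.3% lower. With a size of at least 2-fold added, 25.8% of genes with empty vector and 25.3% with overexpression were higher, against 3 of 4 CLK genes in each. By log2 fold change CLK4 stood with the upper 18.2% of genes with empty vector, CLK3 with the upper 19.5% and CLK1 with the upper 19.6%; with overexpression the values were 20.0% for CLK4, 19.0% for CLK3 and 20.5% for CLK1. CLK2 stood near the middle, at 47.6% and 51.6%. The median log2 fold change of the 4 genes was 1.47 with empty vector and 1.36 with overexpression, beside 0.06 and 0.04 over all genes. About 1 gene in 5 thus had a log2 fold change at least as high as CLK1, CLK3 and CLK4. The myeloid markers given above also differed with the drug, the sum higher without overlap and single markers in both directions, and their part in the CLK values was not tested. Fewer cells of a kind and less RNA per cell cannot be told apart in such bulk samples.

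Ratios of 2 members within a library need no scaling between libraries. The ratio of CLK1 to CLK2 counts was 2.25, 2.40 and 2.21 in overexpressing cells with Adavivint, against 0.770, 0.923 and 0.977 in untreated overexpressing cells. It was 2.20, 2.05 and 1.97 in empty vector cells with the drug, against 0.709, 0.871 and 0.887 in untreated empty vector cells. CLK1 thus went past CLK2 in counts in all 6 treated libraries and stayed below it in all 6 untreated ones. The mean change of the log2 ratio, treated minus untreated, was 1.35 for CLK1 over CLK2, -1.42 for CLK2 over CLK3 and -1.41 for CLK2 over CLK4. Each of these had p = 0.005 in a two-sided exact permutation test within vectors, the smallest that the 400 arrangements can give, and an adjusted p = 0.01 over the 6 pairs.

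The 3 pairs without CLK2 showed much smaller changes. The mean change of the log2 ratio was -0.07 for CLK1 over CLK3 (exact permutation p = 0.36, adjusted 0.528), -0.06 for CLK1 over CLK4 (exact permutation p = 0.44, adjusted 0.528) and 0.01 for CLK3 over CLK4 (exact permutation p = 0.86, adjusted 0.86). Leaving out 1 library at a time moved these between -0.13 and 0.03. The SD of these log2 ratios within a group was 0.10 to 0.24 in untreated and 0.01 to 0.05 in treated cells. These means over both vectors hide unlike moves. CLK3 over CLK4 went from 2.13 untreated to 2.24 treated with overexpression, and from 2.36 to 2.26 with empty vector. CLK1 over CLK3 went from -0.61 to -0.75 with overexpression and stayed at -0.84 with empty vector. Treated and untreated libraries overlapped within each vector in all 3 pairs. In contrast, the proportion of CLK2 to each of CLK1, CLK3 and CLK4 was lower in all 6 treated libraries than in all 6 untreated ones.

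**Figure D2:**
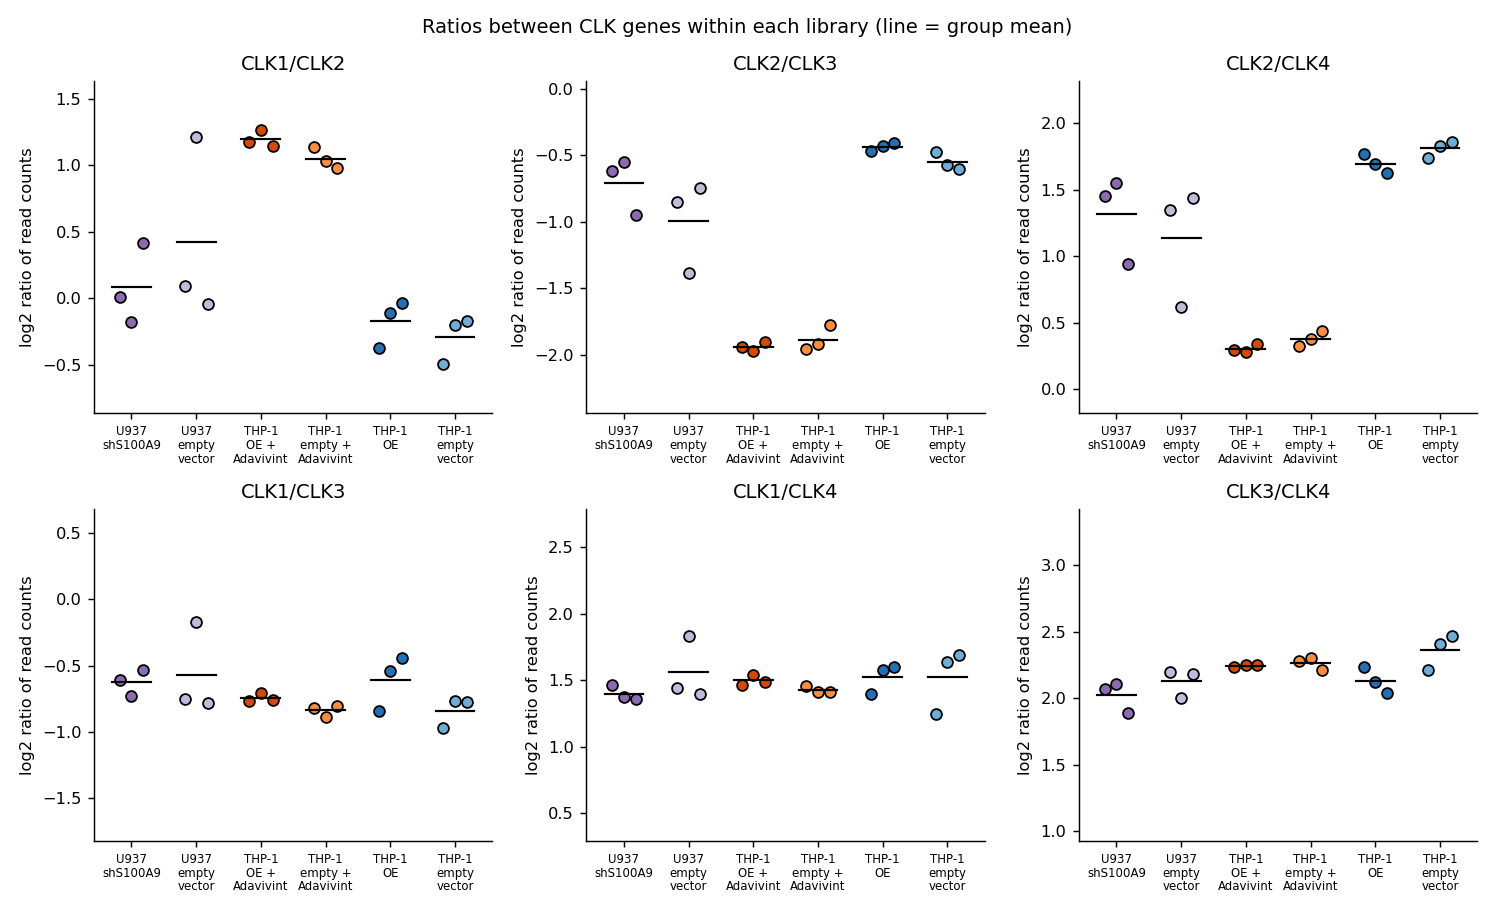
Log2 ratio of counts for each of the 6 pairs of CLK genes (y axis) in the 6 groups; points are libraries and lines are group means. The pairs with CLK2 separate treated from untreated THP-1 libraries, with a mean change of 1.35 for CLK1 over CLK2, and the pairs among CLK1, CLK3 and CLK4 overlap.

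Levels of different genes were compared per kilobase of exon, because longer genes collect more reads. Over the union of annotated exons, the 4 genes summed to 76.4 ± 0.707 CPM per kb in overexpressing cells with Adavivint, against 43.6 ± 1.13 in untreated overexpressing cells, and to 75.5 ± 4.19 CPM per kb in empty vector cells with the drug, against 40.4 ± 5.19 in untreated empty vector cells (SD, n = 3 each). CLK2 made up 27.1% of that sum in overexpressing cells with the drug, against 49.6% without it, and 28.7% in empty vector cells with the drug, against 50.6% without it. CLK1 made up 44.0% with the drug against 31.3% without it in overexpressing cells, and 42.1% against 29.4% in empty vector cells. CLK1 was therefore the first of the 4 by this measure in treated THP-1 cells, and CLK2 in untreated ones.

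The place of CLK3 in that order rests on the length used. Its union of exons spans 20443 bases, its longest transcript 10498 and its longest coding transcript with 13 exons 2621. With the last of these lengths, a choice made after the data were seen, CLK3 held 43.4% of the sum in overexpressing cells with the drug, against 33.6% without it, and 44.2% in empty vector cells with the drug, against 36.4% without it. On that scale CLK2 held 13.7% with the drug against 30.1% without it in overexpressing cells, and 14.5% against 30.1% in empty vector cells. The share of CLK2 was lower in treated cells on both scales, while the gene that came first was CLK1 on one and CLK3 on the other.

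**Figure D3:**
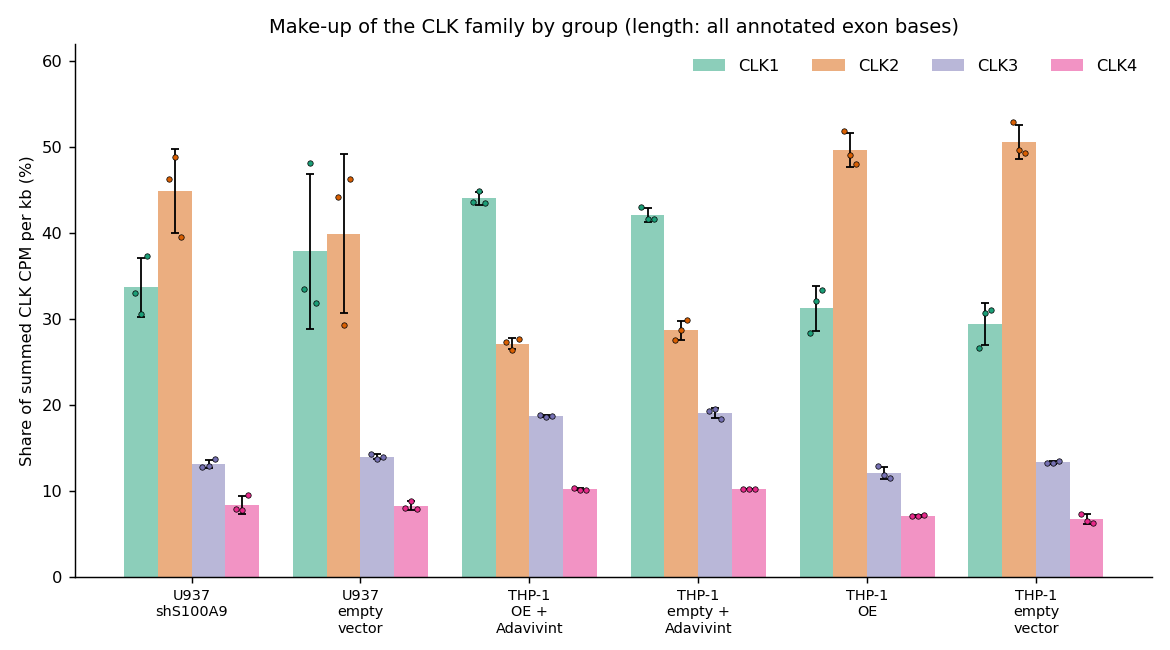
Share of each CLK gene in the summed CPM per kb of union exon length (y axis, percent, from 0) by group; points are libraries, and bars are group means with SD (n = 3). CLK2 falls to 27.1% and 28.7% in the treated THP-1 groups, against 49.6% and 50.6% in the untreated ones, and CLK1 shows the opposite.

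Overexpression of S100A9 in untreated THP-1 cells changed 1 of the 4 genes, beside 28.0% of all genes tested (14.9% higher and 13.0% lower). CLK4 was 1.16-fold higher, at 24.5 ± 0.341 CPM in overexpressing cells and 21.2 ± 1.12 CPM in empty vector cells (log2 fold change 0.21, SE 0.05, adjusted p = 0.0123, edgeR; n = 3 each). The libraries given above did not overlap, and the call was kept under 14 of 14 alternatives, with an adjusted p of up to 0.0497. CLK1 differed by 0.20 (SE 0.10, adjusted p = 0.177, edgeR), CLK2 by 0.09 (adjusted p = 0.354) and CLK3 by -0.02 (adjusted p = 0.846) on the log2 scale. Empty vector replicate 1 had the lowest CLK1 of all 18 libraries, and without empty vector replicate 3 the CLK1 value was 0.31 (adjusted p = 0.0287, edgeR).

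Under Adavivint, overexpression changed 0 of the 4 genes at the adjusted threshold of edgeR, beside 8.5% of all genes (3.69% higher and 4.8% lower). The log2 differences were 0.08 for CLK1, -0.07 for CLK2, -0.01 for CLK3 and 0.01 for CLK4, with adjusted p of 0.686, 0.642, 0.968 and 0.924 in edgeR. By DESeq2 0 passed as well, and 0 had an unadjusted p under 0.05 in edgeR. S100A9 itself stood at 105 ± 5.18 CPM in overexpressing cells with the drug, against 13.6 ± 1.11 CPM in empty vector cells with the drug (SD, n = 3 each). S100A9 was also higher with the drug than without it, 2.16-fold with empty vector (adjusted p = 0.000174, edgeR) and 3.80-fold with overexpression (adjusted p = 2.48e-07, edgeR). The part of S100A9 in the drug comparisons of the CLK genes was not tested.

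The difference between the drug effects in both vectors was tested as an interaction, which 19.3% of all genes passed (8.04% with a positive and 11.2% with a negative value) and 0 of the 4 members did. Its log2 value was -0.20 for CLK4 (SE 0.08, adjusted p = 0.086, edgeR), -0.16 for CLK2 (SE 0.10, adjusted p = 0.293), -0.11 for CLK1 (SE 0.15, adjusted p = 0.627) and 0.02 for CLK3 (SE 0.11, adjusted p = 0.943). CLK4 was the nearest to a call, and its treated levels differed by 0.01 between vectors while its untreated levels differed by 0.21. With library totals in place of TMM the CLK4 value was -0.26 (adjusted p = 0.0394, edgeR), and without empty vector replicate 3 it was -0.23 (adjusted p = 0.0499). The unadjusted p of CLK4 was 0.0217, and the other members had an unadjusted p above 0.05.

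**Figure D4:**
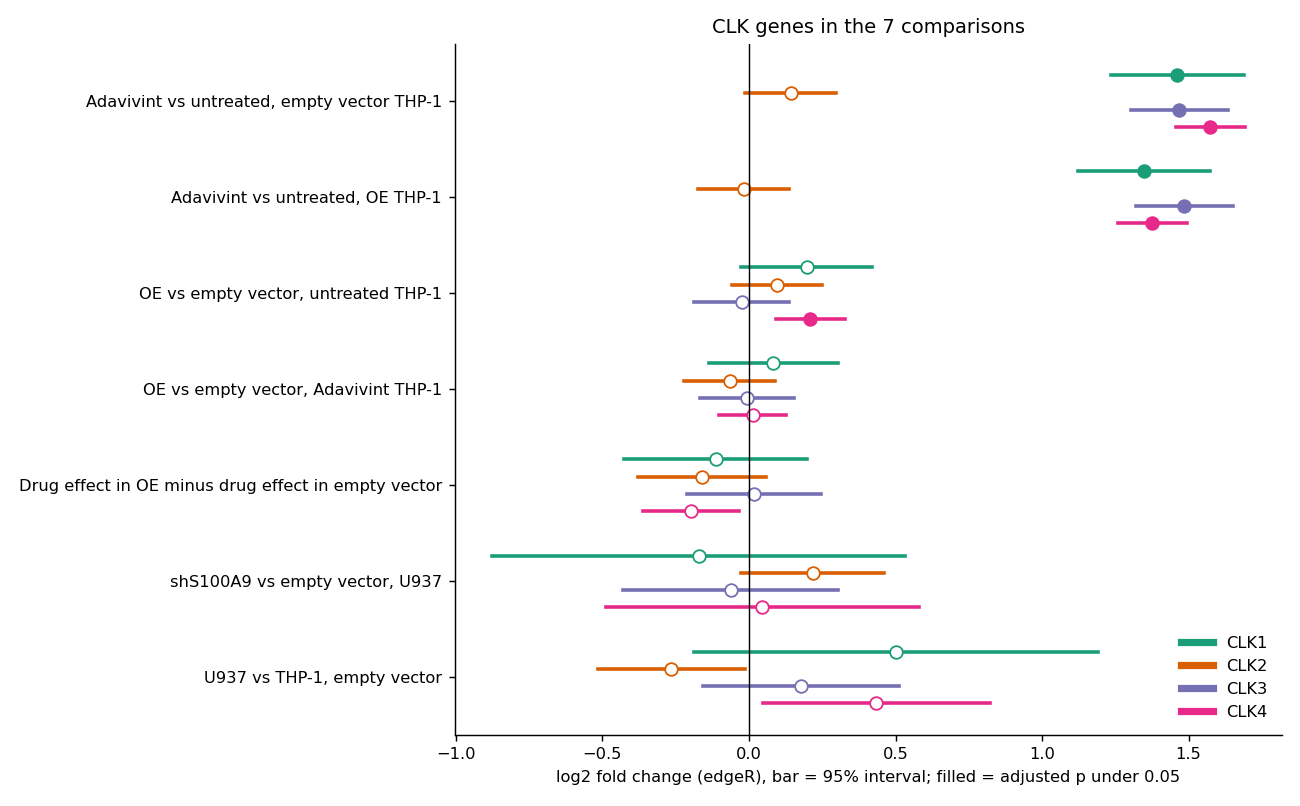
Log2 fold change of each CLK gene (x axis) in each comparison, with 95% intervals from edgeR; filled points passed (adjusted p under 0.05), and positive values are higher in the group named first on the y axis. The drug comparisons put CLK1, CLK3 and CLK4 between 1.35 and 1.57 and CLK2 at 0.14 and -0.02, and CLK4, at 0.21 with overexpression in untreated THP-1 cells, is the 1 filled point outside the drug comparisons; intervals off 0 with an open point are those of CLK4 for the drug effect between vectors and of CLK2 and CLK4 between the lines.

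In U937 cells the knockdown of S100A9 changed 0 of the 4 genes by edgeR, beside 1.77% of all genes (0.23% higher and 1.54% lower), and 0 by DESeq2; 0 of the 4 had an unadjusted p under 0.05 in edgeR. CLK1 had 72.4, 65.1 and 97.2 CPM in shS100A9 cells, against 67.3, 131 and 65.8 CPM in empty vector cells. CLK3 had 111, 108 and 140.5 CPM in shS100A9 cells, against 114, 147 and 113 CPM in empty vector cells. CLK4 had 26.3, 25.1 and 38.0 CPM in shS100A9 cells, against 24.8, 36.6 and 25.0 CPM in empty vector cells. In each of these genes the highest value of a group belonged to the library that stood apart, shS100A9 3 or empty vector 2, and the groups overlapped.

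CLK2 in U937 cells had 72.1, 73.7 and 73.0 CPM with the knockdown, against 63.0, 56.3 and 67.8 CPM with empty vector. Its groups did not overlap, but the log2 fold change of 0.22 did not pass (SE 0.10, 95% interval -0.03 to 0.46, adjusted p = 0.404, edgeR). The log2 fold changes of the others were -0.17 for CLK1 (adjusted p = 0.854), -0.06 for CLK3 (adjusted p = 0.902) and 0.05 for CLK4 (adjusted p = 0.951). Without both libraries that stood apart, they were 0.04 for CLK1 (adjusted p = 0.699), 0.14 for CLK2 (adjusted p = 0.0792), -0.06 for CLK3 (adjusted p = 0.325) and 0.04 for CLK4 (adjusted p = 0.685, edgeR).

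The ratio of CLK1 to CLK2 counts in U937 cells was 1.01, 0.883 and 1.33 with the knockdown, against 1.07, 2.32 and 0.970 with empty vector. The value of 2.32, from empty vector 2, lies within the range of the treated THP-1 libraries, although no U937 cells were labelled as treated. Other ratios with CLK2 in this library lay outside the treated ranges. CLK2 to CLK3 was 0.384, against 0.255 to 0.292 in treated THP-1 libraries, and CLK2 to CLK4 was 1.54, against 1.21 to 1.35. The CLK1, CLK3 and CLK4 levels of empty vector 2 were below every treated THP-1 library. Its CLK2, at 56.3 CPM, was the lowest of all 18 libraries.

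Across groups, the 2 treated THP-1 groups came first for CLK1, CLK3 and CLK4, overlapping each other and no other group. For CLK1 the order then ran over U937 empty vector (87.9 ± 37.0 CPM), U937 shS100A9 (78.2 ± 16.9), untreated overexpressing THP-1 (70.4 ± 4.39) and untreated empty vector THP-1 cells (61.9 ± 12.6), each overlapping the next. CLK3 likewise ran from 125 ± 19.3 CPM in U937 empty vector cells to 107 ± 9.03 CPM in untreated overexpressing THP-1 cells with every neighbour overlapping. For CLK4 the U937 groups, at 29.8 ± 7.14 CPM with the knockdown and 28.8 ± 6.80 with empty vector, came before the untreated THP-1 groups. The knockdown libraries overlapped neither of those, and the U937 empty vector libraries overlapped the overexpressing ones alone. CLK2 ran from 79.6 ± 7.48 CPM in treated empty vector THP-1 cells to 62.4 ± 5.77 CPM in U937 empty vector cells (SD, n = 3 each).

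The lines were compared through their empty vector cells, U937 over THP-1, where 26.2% of genes passed (11.4% higher and 14.8% lower in U937) and 0 of the 4 CLK genes did by edgeR. These cells were the controls of a knockdown in U937 and of an overexpression in THP-1, so line and experiment cannot be told apart. The log2 differences were 0.50 for CLK1 (SE 0.29, adjusted p = 0.255), 0.43 for CLK4 (SE 0.16, adjusted p = 0.0978), 0.18 for CLK3 (SE 0.14, adjusted p = 0.406) and -0.26 for CLK2 (SE 0.11, adjusted p = 0.114). The unadjusted p was under 0.05 for 2 of them, CLK2 and CLK4. Without U937 empty vector 2 the CLK4 difference was 0.22 (adjusted p = 0.0442, edgeR). By DESeq2 0 of the 4 passed.

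Counts of the related lists are given beside the shares of all genes, of which 43.4% were higher and 41.3% lower with overexpression, and 44.2% higher and 41.1% lower with empty vector. Among the 4 SR protein kinases, which share substrates with the CLKs, 2 rose and 2 fell with the drug with either vector, close to those shares. PRPF4B, a kinase bound to the spliceosome, had 422 ± 12.0 CPM in overexpressing cells with Adavivint, against 153 ± 6.61 CPM without it, and was 2.85-fold higher there and 2.69-fold higher with empty vector. SRPK2 was 1.35-fold higher with overexpression and 1.57-fold higher with empty vector. SRPK1, the main cytoplasmic kinase of SR proteins, was 1.37-fold lower with overexpression and 1.46-fold lower with empty vector. SRPK3 was 2.63-fold and 2.72-fold lower, at levels of no more than 1.32 CPM. In U937 cells SRPK1 was the 1 SR protein kinase of 4 that passed with the knockdown, beside 1.77% of all genes (0.23% higher and 1.54% lower). It was 2.30-fold lower (adjusted p = 0.0278, edgeR). The genes called in the knockdown numbered 231, and 18 to 362 without 1 library, and the SRPK1 call was not followed under the alternatives.

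DYRK and HIPK kinases, the nearest relatives of the CLKs in the CMGC group, had 5 of 8 tested members higher and 2 lower in each drug comparison, beside 43.4% of all genes higher with overexpression and 44.2% with empty vector. DYRK1A, the other kinase that Adavivint is described as inhibiting, had 255 ± 7.73 CPM in overexpressing cells with the drug, against 115 ± 1.49 CPM without it, and was 2.28-fold higher there and 2.19-fold higher with empty vector. DYRK4 was 3.13-fold higher with overexpression and 4.09-fold with empty vector, HIPK3 2.35-fold and 2.04-fold, and HIPK1 1.63-fold and 1.78-fold. The median log2 fold change of this list was 0.58 with overexpression and 0.62 with empty vector, beside 0.04 and 0.06 over all genes. Of 41 other CMGC kinases tested, 18 rose and 18 fell with overexpression, and 17 rose and 17 fell with empty vector, near the shares of all genes (43.4% higher and 41.3% lower with overexpression, 44.2% and 41.1% with empty vector). MAPK13, a p38 kinase, was 14.6-fold higher with overexpression and 21.5-fold higher with empty vector, and CDK5, a kinase best known in neurons, was 5.89-fold and 5.06-fold lower. CILK1 was 4.12-fold and 5.08-fold higher, and GSK3B, a kinase that marks beta-catenin for destruction, 2.36-fold and 2.50-fold.

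SR proteins, the substrates of the CLKs, had 9 of 14 members higher and 3 lower with overexpression, and 8 higher and 4 lower with empty vector, beside 43.4% and 44.2% of all genes higher and 41.3% and 41.1% lower. SRSF7 moved most of the named ones, 4.07-fold lower with overexpression and 5.02-fold lower with empty vector, at 60.1 ± 2.64 CPM in overexpressing cells with the drug, against 252 ± 7.24 CPM without it. SRSF4 was 2.25-fold and 1.83-fold higher, SRSF8 1.85-fold and 1.60-fold, and SRSF11 1.41-fold and 1.77-fold. Factors of NMD had 8 of 10 members higher and 1 lower with overexpression, and 8 higher and 2 lower with empty vector, beside the same shares of all genes. SMG8 was 4.31-fold and 3.30-fold higher, SMG1, the kinase that phosphorylates UPF1, 1.52-fold and 1.70-fold, and SMG6, an endonuclease, 1.35-fold and 1.77-fold. The counts measure RNA of these genes, and neither phosphorylation nor splicing was measured.

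**Figure D5:**
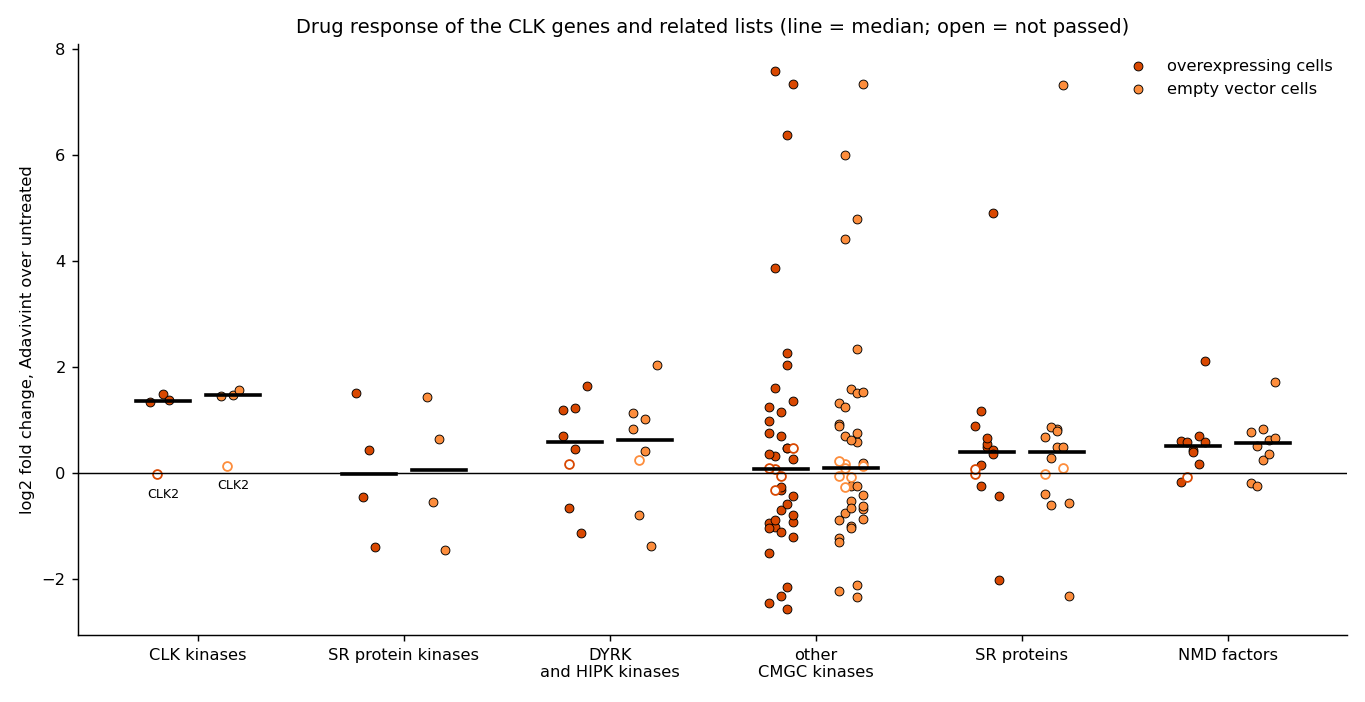
Log2 fold change, Adavivint over untreated (y axis), of the genes tested in each list (x axis), in overexpressing and empty vector cells; each point is a gene, open where it did not pass, thick lines are list medians, and fitted values of genes with few untreated counts, such as SRSF12, depend on the prior count. CLK1, CLK3 and CLK4 lie between 1.35 and 1.57, while the SR protein kinases spread over both sides, 2 higher and 2 lower.

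The genes around the members were examined because counts can be shared where genes overlap and the strand setting of the counting is unknown. ARID3B, a DNA-binding factor that ends 368 bases before the outermost annotated start of CLK3 on the same strand, was 3.68-fold higher with overexpression and 3.18-fold higher with empty vector. The CLK3 promoter printed above, at chr15:74615586-74615835, lies further downstream, past that start at 74598500. EDC3, an mRNA decapping factor that overlaps CLK3 by 14857 bases on the opposite strand, was 1.44-fold and 1.15-fold higher. The part of reads from these genes in the CLK3 values was not tested. PPIL3, 6162 bases upstream of CLK1 on the same strand, differed by -0.06 (adjusted p = 0.371) and 0.09 (adjusted p = 0.232, edgeR) on the log2 scale. BZW1, on the other side of CLK1, was 1.26-fold higher with overexpression and did not pass with empty vector (adjusted p = 0.249).

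HCN3, an ion channel gene that overlaps CLK2 by 909 bases on the opposite strand, differed by 0.04 with overexpression (adjusted p = 0.749) and by 0.09 with empty vector (adjusted p = 0.491, edgeR). SCAMP3, a membrane trafficking gene that begins 437 bases beyond the end of CLK2, was 1.46-fold and 1.22-fold higher. COL23A1, the neighbour beyond the end of CLK4, was 2.20-fold and 1.86-fold lower, at no more than 3.01 CPM. CYP1A1, beyond CLK3 on the opposite strand, was 3.22-fold and 1.85-fold higher at no more than 2.48 CPM. The gene ENSG00000285978, 63989 bases upstream of CLK4, had 0 counts in the 6 untreated THP-1 libraries and averaged 1.46 CPM in overexpressing and 1.50 CPM in empty vector cells with the drug. PKLR, upstream of CLK2, was too low to be tested. The processed pseudogenes CLK2P1 and CLK3P2, which resemble their parent genes, have no row in the deposited counts and could not be analysed here.

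The genes whose pattern was most like each member were sought by Pearson's r of log2(CPM + 1) over the 12 THP-1 libraries. These libraries form 2 clusters, treated and untreated, so a high r mainly restates a difference between them and is given as a description. For CLK1 the nearest were STX16-NPEPL1 (r = 0.9972), POLK, FNIP1, ERCC6 and OTUD1. For CLK3 they were ELMOD3 (r = 0.998), ZNF799, TOM1, IP6K2 and SYTL2. For CLK4 they were CHD2 (r = 0.9995), KIDINS220, HOMER2, LTBP2 and MKRN1. CHD2, a chromatin remodeler, averaged 1397 ± 34.3 CPM in overexpressing cells with the drug against 268 ± 3.84 CPM without it, and 1319 ± 138 CPM in empty vector cells with the drug against 202 ± 22.2 CPM without it (SD, n = 3 each).

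Among the members, r was 0.982 between CLK1 and CLK3, 0.987 between CLK1 and CLK4 and 0.989 between CLK3 and CLK4. CLK2 had an r of 0.161 to 0.199 with each of them. Its own nearest genes were XPC (r = 0.8473), TREX1, GIGYF1, TMPRSS13 and DALRD3, of which TREX1 and TMPRSS13 averaged under 1 CPM in all 4 THP-1 groups. Among 15402 genes ranked by nearness to CLK1, CLK4 came at place 226 and CLK3 at place 495. By nearness to CLK3, CLK4 came at place 445 and CLK1 at place 1346. By nearness to CLK4, CLK3 came at place 1104 and CLK1 at place 1415. Many genes outside the family were thus nearer.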

How the data were processed

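RNA was isolated with TRIzol, per the labels' protocols. The authors deposited raw read counts per gene, whole numbers without normalization, and HISAT2 2.0.4 is named in the submitters' processing notes. The counter, build, annotation and strandedness were not given in the sources used here. Symbols were found for 18642 of 18670 identifiers, and positions come from GENCODE 29.

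The counts were tested with edgeR 4.0.16 in R 4.3.3 (TMM factors, filterByExpr, quasi-likelihood F test, Benjamini-Hochberg over all genes tested, threshold 0.05), in 1 fit of the 6 U937 libraries, 1 of the 12 THP-1 libraries and 1 of the 6 empty vector libraries. Standard errors are the log2 fold change over the square root of F. Scripts were tested on simulated data. The alternatives were DESeq2 1.42.0, other scalings and filters, a replicate block, smaller fits, other gene lengths and leaving out libraries. Replicate pairs differed by more than sampling noise (chi-square over its degrees of freedom 7.18 to 225) and were all kept. The labels do not tell whether replicates are separate cultures; p-values therefore reflect only the variation among these libraries, possibly technical.

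Named genes were the CLK genes, S100A9, the SR protein kinases, up to 4 passing members of each other list by smallest p in the empty vector drug comparison, the nearest and overlapping genes, and the 5 genes most like each member. One gene that the rule named is not reported here. The members and lists were chosen with earlier results of these data known.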

Additional observations from a re-analysis of the deposited data

How the results depend on the processing

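CLK1, CLK3 and CLK4 stayed higher with Adavivint, past the threshold, under all 14 alternatives with either vector; leaving out 1 library gave 1.31 to 1.58 and 1.29 to 1.38 for CLK1, 1.38 to 1.55 and 1.43 to 1.54 for CLK3, and 1.53 to 1.60 and 1.37 to 1.38 for CLK4 on the log2 scale with empty vector and with overexpression. Other scalings moved the median log2 fold change of all genes to 0.141 at most. CLK2 with empty vector (0.14) passed at 0.19 by DESeq2, 0.19 with DESeq2 size factors, 0.22 with upper quartile factors and 0.17 with the 1 CPM filter, and ranged from 0.064 to 0.20 without 1 library. CLK2 with overexpression (-0.02) turned to 0.044, 0.044, 0.079 and 0.011 under the same settings, and ranged from -0.060 to 0.019 without 1 library. With library totals, CLK4 was -0.044 for overexpression under the drug, and the interaction was -0.044 for CLK3 and -0.26 for CLK4; with upper quartile factors CLK3 was 0.0084 for overexpression under the drug.

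Leaving out 1 library moved the knockdown values from -0.36 to 0.23 for CLK1, -0.20 to 0.069 for CLK3 and -0.17 to 0.25 for CLK4. For overexpression in untreated cells it gave 0.052 to 0.31 for CLK1 (past the threshold without empty vector replicate 3) and -0.11 to 0.059 for CLK3. For overexpression under the drug it gave -0.12 to 0.011 for CLK2, -0.030 to 0.012 for CLK3 and -0.018 to 0.059 for CLK4. For the interaction it gave -0.23 to 0.031 for CLK1, -0.067 to 0.11 for CLK3 and -0.23 to -0.15 for CLK4. It gave 0.22 to 0.53 for CLK4 between the lines (past the threshold without U937 empty vector 2), and -0.030 to 0.033 for the log2 ratio of CLK3 to CLK4. Without U937 empty vector 2 and shS100A9 3, CLK1 was 0.037 for the knockdown. The cause of these changes was not tested.

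Same-numbered libraries correlated between -0.553 and 0.289 in their deviations in U937 cells and between -0.0969 and 0.0973 in THP-1 cells. Deviations from a mean of 3 libraries are tied to one another, so these values cannot decide whether the numbers pair the libraries. U937 libraries of different numbers correlated between -0.45 and 0.541, highest for shS100A9 3 with empty vector 2, the libraries that stood apart. The reason was not tested. With the replicate block CLK1 was -0.11 for the knockdown and CLK4 1.57 with the drug and empty vector. No CLK call changed with the block, and the genes called in the knockdown numbered 3. That count was 231 as reported, 879 by DESeq2, 4296 without both libraries and 18 to 362 without 1. Other gene counts that moved over 1.5 times were those for overexpression under the drug (1309, against 2026 by DESeq2 and 502 to 1174 without 1 library), overexpression in untreated cells (4307, against 2735 without overexpression replicate 2), the interaction (2968, against 1885 at the lowest without 1 library) and the lines (3583, against 2122 to 6111). With 3 libraries a group, the main fit did not tell the drug change of CLK2 from 0. Its intervals ran from -0.01 to 0.30 with empty vector and from -0.17 to 0.14 with overexpression. In the same fit CLK4, with a smaller SE, passed at 0.21 for overexpression in untreated cells.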
